A study of Mus musculus with 7 samples.

Results

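The cytosolic ribosomal protein genes encode the proteins that, with the ribosomal RNAs, build the ribosomes of the cytoplasm. They were taken as the rows typed as protein coding whose symbol follows the family's naming (Rps or Rpl with a number and at most 1 of the letters a, x, l or y, together with Rpsa and Rplp0 to Rplp2), leaving out 1 gene by name. This gave 78 of the 26019 gene rows of the table, 30 of the small subunit and 48 of the large subunit. The naming rule uses no measured value. Family members under other names (Fau, Rack1, Rps3a1 and others) and 3 rows with a matching name but a pseudogene type were kept apart.

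RNA was measured in mouse oocytes freed from secondary follicles, the stage at which a growing oocyte is surrounded by several layers of granulosa cells. The 7 libraries, made by Smart-Seq2 from 5 pooled oocytes each, were 3 from KO and 4 from WT mice of the C57BL/6J strain, with no treatment in either group. KO stands for loss of Mfn2 (mitofusin 2, a GTPase of the outer mitochondrial membrane) in the series' title and design text, but for loss of Mfn1 in the genotype label and in the protocol text on treatment. Age is 8 weeks in that protocol and P1 in the age label. The design text speaks of 3 mice a group, and the sources used here do not give how the deletion was made. No label ties a library to a mouse, so the p-values reflect the spread among these libraries alone, which may be technical.

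Mfn2 had 7.27, 4.55 and 7.66 normalised counts in KO libraries, against 35.3, 35.1, 15.0 and 29.2 in WT libraries (log2 fold change -1.94, SE 0.40, adjusted p = 0.00571, limma with Benjamini-Hochberg adjustment over all genes). Mfn1 had 335, 347 and 308 normalised counts in KO libraries, against 287, 271, 340.2 and 258 in WT libraries (log2 fold change 0.20, adjusted p = 0.499). Mfn2 was lower in every KO library than in any WT library, and Mfn1 was not called. Reads counted in gene rows summed to 6851042 to 8343915 in KO libraries and 6676076 to 7741141 in WT libraries, with size factors between 0.914 and 1.10. Of 19 tested oocyte markers 1 (5.26%, against 3.09% of all genes) was called higher in KO (Dazl, log2 fold change 0.40, adjusted p = 0.0393). At an unadjusted p under 0.05 (limma) there were 7 of the 19 (36.8%, against 21.8% of all genes). The summed normalised counts of these markers were 276101, 440683 and 313256 in KO libraries, against 293260, 265862, 236901 and 316365 in WT libraries. KO 2 stood well above the others. RNA of granulosa cell markers differed between libraries: their mean level on the log2(value + 1) scale was 3.40, 4.67 and 4.47 in KO libraries, against 3.38, 2.44, 2.95 and 2.82 in WT libraries. The granulosa markers Foxl2, Fst and Inhbb stayed under 5 normalised counts in every library. The part of granulosa cell RNA in the results below was not tested beyond the values given with them.

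The small subunit reads the mRNA and the large subunit joins amino acids. Ribosomal protein mRNAs start with a run of pyrimidines, the terminal oligopyrimidine (TOP) motif, through which the kinase mTOR and the RNA-binding protein LARP1 set how strongly they are translated, so that their mRNA level and their protein output can part. Growing oocytes build up the ribosomes that the early embryo will use, and the family has left many processed pseudogenes in mammalian genomes, copies that can take or give reads when libraries are counted.

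Promoters of 58 of the 78 genes were found in RefSeq (build GRCm38.p6), and 5 are shown because their genes are described below. Each runs 60 bases before to 20 after the annotated start, 5′ to 3′ on the gene's strand, and capitals mark the longest run of C and T near the start.
Rps7 (chr12:28635934-28636013, minus strand): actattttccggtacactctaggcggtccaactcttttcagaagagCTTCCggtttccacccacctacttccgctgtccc
Rps18 (chr17:33955646-33955725, minus strand): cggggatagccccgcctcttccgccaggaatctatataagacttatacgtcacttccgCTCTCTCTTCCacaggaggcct
Rpl35 (chr2:39005112-39005191, minus strand): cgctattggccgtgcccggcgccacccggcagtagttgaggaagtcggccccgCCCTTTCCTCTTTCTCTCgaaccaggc
Rpl4 (chr9:64173327-64173406, plus strand): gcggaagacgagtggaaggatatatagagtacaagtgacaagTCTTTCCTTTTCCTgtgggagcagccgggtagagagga
Rplp0 (chr5:115559407-115559486, plus strand): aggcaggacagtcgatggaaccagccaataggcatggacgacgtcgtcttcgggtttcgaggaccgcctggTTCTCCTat

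The run was long in Rpl35 (18 bases), Rpl4 (14) and Rps18 (11), and short in Rps7 (5) and Rplp0 (7). Relative to the annotated start these runs began at -7, -18, -2, -14 and 12 in turn. Those of Rpl4 and Rps7 lay wholly before it. These are lengths of runs near the start, and not of the TOP motif itself. Within 20 bases of either side of the start, the longest C and T run had a median of 7 bases in the 58 promoters and of 5 in all 32851 promoters of the table. A run of 8 or more was present in 28 of the 58 (48.3%) and in 21.2% of all promoters. In the window from 250 bases before to 50 after the start, CTCTTTC on the gene's strand was present in 12 of the 58 (20.7%; 3.99% of all promoters) and CTTTTC in 11 (19.0%; 11.4% of all). Neither of these motifs contains the other, and both can lie in 1 pyrimidine run. The ETS core CCGGAAG, which the factor GABP binds, was present on either strand in 23 (39.7%; 8.86% of all), among them Rps7, Rps18, Rpl35 and Rpl39l. The YY1-type motif AAGATGG was present on either strand in 8 (13.8%; 6.34% of all), and TATAAA on the gene's strand in 5 (8.62%; 8.32% of all). These matches describe letters in a window and not bound sites.

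Coding sequences of the pairs Rpl39l and Rpl39, and Rps27l and Rps27, are shown because each pair holds a gene of high level and a near copy, and because the mismatches are what lets reads be told apart. Capitals mark the bases that differ within a pair (GENCODE M21, coding exons joined, 5′ to 3′).
Rpl39l: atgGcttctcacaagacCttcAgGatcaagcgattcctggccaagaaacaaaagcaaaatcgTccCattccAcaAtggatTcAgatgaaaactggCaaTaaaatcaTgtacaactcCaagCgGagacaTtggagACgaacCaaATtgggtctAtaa
Rpl39: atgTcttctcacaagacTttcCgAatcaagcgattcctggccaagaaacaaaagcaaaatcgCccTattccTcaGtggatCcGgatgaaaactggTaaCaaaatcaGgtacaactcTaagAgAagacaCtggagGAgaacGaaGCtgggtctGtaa
Rps27l: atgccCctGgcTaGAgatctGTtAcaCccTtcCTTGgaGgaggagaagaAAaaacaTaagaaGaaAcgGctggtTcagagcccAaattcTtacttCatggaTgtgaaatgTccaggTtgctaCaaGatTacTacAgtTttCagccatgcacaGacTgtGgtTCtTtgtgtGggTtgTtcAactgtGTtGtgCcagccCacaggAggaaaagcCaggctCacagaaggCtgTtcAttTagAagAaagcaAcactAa
Rps27: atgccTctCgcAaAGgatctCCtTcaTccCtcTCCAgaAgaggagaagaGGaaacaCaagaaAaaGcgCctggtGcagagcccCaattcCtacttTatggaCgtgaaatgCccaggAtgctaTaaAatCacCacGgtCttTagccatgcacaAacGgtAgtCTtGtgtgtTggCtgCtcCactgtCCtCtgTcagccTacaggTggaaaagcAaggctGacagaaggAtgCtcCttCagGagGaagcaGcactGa

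Rpl39l and Rpl39 differed at 23 of 156 coding bases (85.3% identity), and their longest identical stretch was 38 bases, shorter than the 75-base reads. Rps27l and Rps27 differed at 61 of 255 bases (76.1% identity), with a longest identical stretch of 11 bases.

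In the rows named for them, the mRNA levels of the ribosomal protein genes in KO oocytes stayed close to those in WT oocytes. Counts in the rows of their copies are given apart from these, further below. All 78 genes had at least 1 normalised count in every library, all passed the filter on low values and were tested, and none was called higher or lower in KO at an adjusted p under 0.05 (limma, Benjamini-Hochberg over all genes). Over all 19227 genes tested, 6.71% were called, 3.09% higher and 3.63% lower in KO. At an unadjusted p under 0.05 the family held 7 genes (8.97% of 78), 3 higher and 4 lower in KO, against 21.8% of all genes. The count tests run on the recovered reads, edgeR's quasi-likelihood test and DESeq2, also called 0 of the 78, with 8 genes each at an unadjusted p under 0.05. Leaving out KO library 1 made 2 of them called, both higher in KO: Rps3 (log2 fold change 0.63, adjusted p = 0.0184) and Rpl7 (0.54, adjusted p = 0.0291). In that fit 815 of the 18871 genes tested were called higher in KO. Each of the other alternatives tried called 0 of the family. The count over all genes was 1291 with all libraries and 1767 without KO 1. It was 604, 821, 728, 710, 594 and 902 without KO 2, KO 3, WT 1, WT 2, WT 3 and WT 4 in turn. In libraries of pooled oocytes, fewer contributing cells and less RNA per cell cannot be told apart, and the normalisation removes any shift shared by most genes.

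The estimates were narrow. The 95% interval of the log2 fold change lay within -1 to 1, that is within 2-fold, for 74 of the 78 genes (94.9%), against 48.5% of all genes tested. Among genes with a mean of at least 100 normalised counts it did so for 69 of 69 family members and for 90.0% of all genes. The 4 genes with wider intervals were the low rows Rps12, Rps27, Rpl9 and Rpl12. The median log2 fold change was -0.02 over the family and -0.01 over all genes tested. Its quartiles were -0.13 and 0.19 in the family, against -0.21 and 0.20 in all genes with a mean of at least 100. The values ran from -0.58 (Rps12) to 0.46 (Rps3), with 38 genes above 0 and 40 below. The 30 small subunit genes had a median of 0.06 (18 above 0) and the 48 large subunit genes a median of -0.03 (20 above 0).

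**Figure D1:**
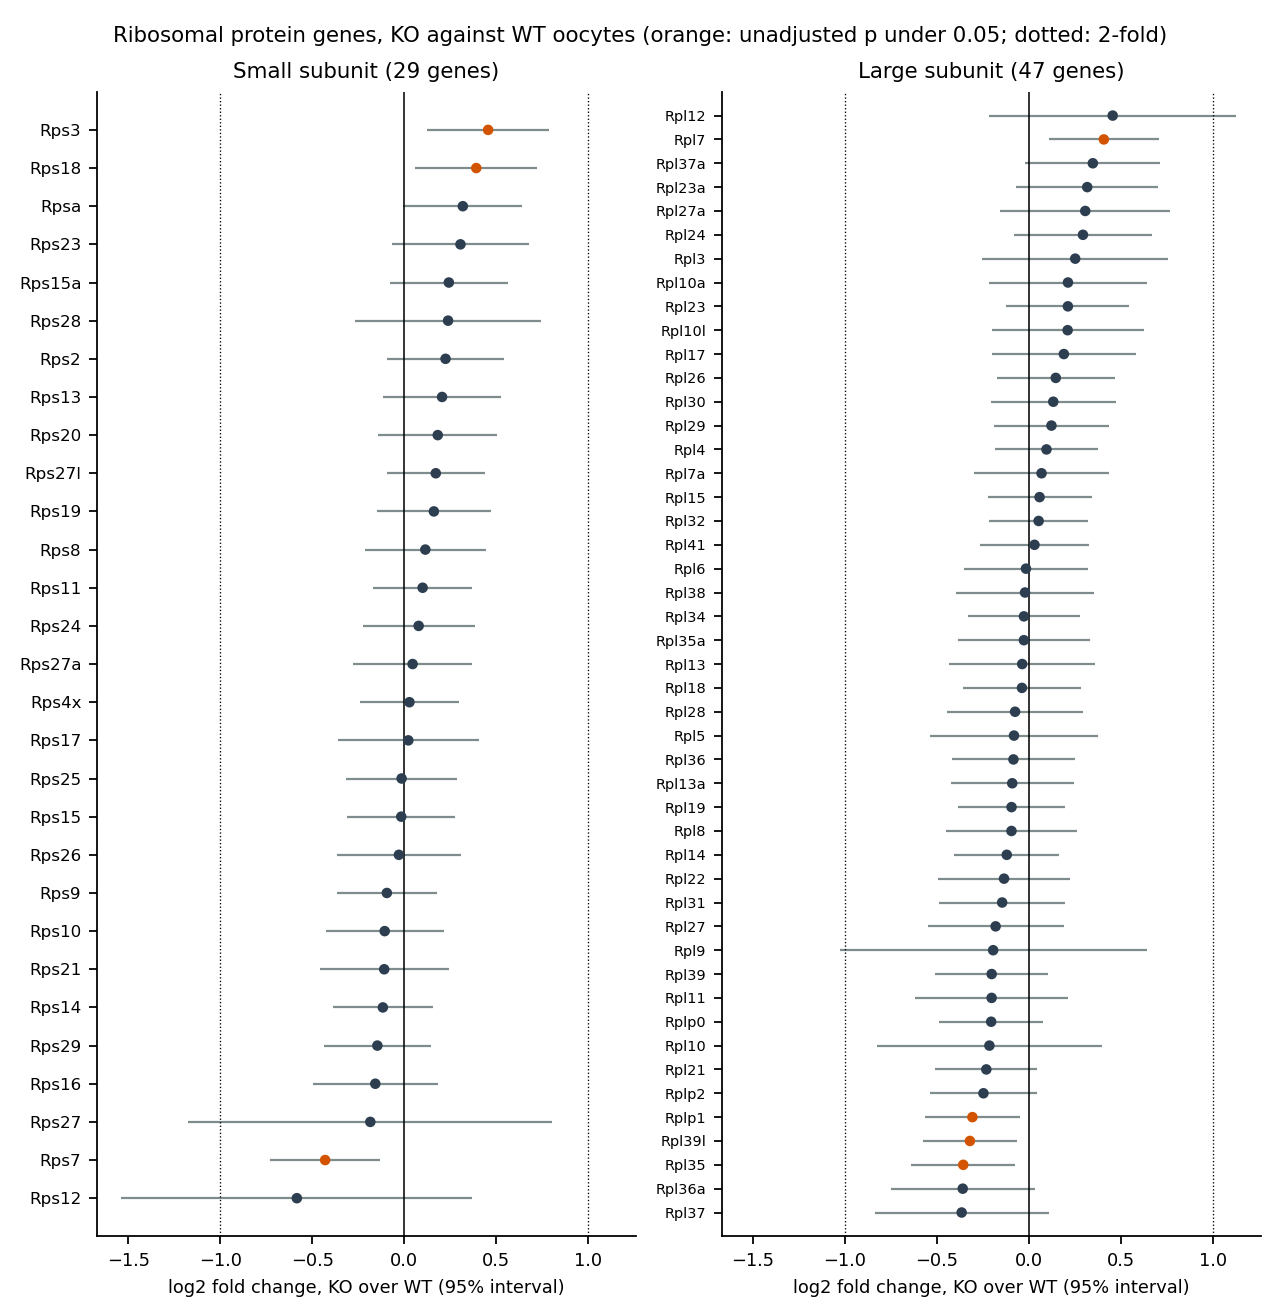
Log2 fold change of KO over WT with its 95% interval for 29 small subunit genes (left) and 47 large subunit genes (right), ordered by value. The solid line marks 0 and the dotted lines 2-fold; orange points have an unadjusted p under 0.05. The points lie between -0.58 and 0.46, and 72 of the 76 intervals drawn (2 of the 78 genes are not shown) stay between the dotted lines.

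Between replicates the family varied less in WT than in KO. The median coefficient of variation of the 69 family members with a mean of at least 100 normalised counts was 14.4% over the 3 KO libraries, against 7.81% over the 4 WT libraries. For all genes at that level it was 15.4% in KO and 11.4% in WT.

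The 7 genes with an unadjusted p under 0.05 were chosen after their values were seen, and none of them was called. In the small subunit, Rps7, which also binds the p53 regulator MDM2 when free of the ribosome, had 473, 600.0 and 484 normalised counts in KO libraries, against 749, 743, 612 and 687 in WT libraries (log2 fold change -0.43, SE 0.14, adjusted p = 0.0763; chr12:28630854-28635954, minus strand, build GRCm38). Every KO library lay below every WT library, with KO 2 close below the lowest WT library. Rps3, which lines the mRNA entry channel, had 602, 874 and 852 normalised counts in KO libraries, against 591, 565, 459 and 634 in WT libraries (log2 fold change 0.46, SE 0.16, adjusted p = 0.0893; chr7:99477896-99483739, minus strand). KO 2 and KO 3 were above all WT libraries, while KO 1 lay among them. Rps18, a protein of the head of the small subunit, had 281, 301 and 312 normalised counts in KO libraries, against 226, 213, 259.8 and 211 in WT libraries (log2 fold change 0.39, SE 0.16, adjusted p = 0.149; chr17:33951999-33956002, minus strand). The groups did not overlap. The row of Rps18 overlaps that of Vps52, and without strand in the library kit, reads from the overlap cannot be assigned to either gene with certainty.

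In the large subunit, Rpl7 had 970.2, 1135 and 1436 normalised counts in KO libraries, against 959, 833, 906 and 823 in WT libraries (log2 fold change 0.41, SE 0.14, adjusted p = 0.0927; chr1:16101295-16104663, minus strand). All KO libraries were above all WT libraries, but KO 1 exceeded WT 1 by little. Rpl35, which sits near the exit of the tunnel through which the new protein leaves, had 629, 726 and 768 normalised counts in KO libraries, against 935, 827, 1004 and 859 in WT libraries (log2 fold change -0.36, SE 0.14, adjusted p = 0.120; chr2:39001580-39005625, minus strand). The groups did not overlap, and the row overlaps those of Arpc5l and Wdr38. Rplp1, an acidic protein of the stalk that recruits elongation factors, had 1001, 1040.0 and 985 normalised counts in KO libraries, against 1245, 1183, 1217 and 1353 in WT libraries (log2 fold change -0.31, SE 0.12, adjusted p = 0.146; chr9:61913284-61914543, minus strand). The 3 KO libraries lay close together below all WT libraries. Rpl39l, a paralog of the tunnel protein Rpl39 that is known for its level in testis, had 1212, 1124 and 1313 normalised counts in KO libraries, against 1596, 1570.0, 1430.1 and 1475 in WT libraries (log2 fold change -0.32, SE 0.12, adjusted p = 0.125; chr16:10170226-10174912, plus strand). Its KO libraries were all below its WT libraries. Rpl39 itself had 717, 628 and 934 normalised counts in KO libraries, against 913, 773, 918 and 854 in WT libraries (log2 fold change -0.20, adjusted p = 0.459), and there the groups overlapped.

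**Figure D2:**
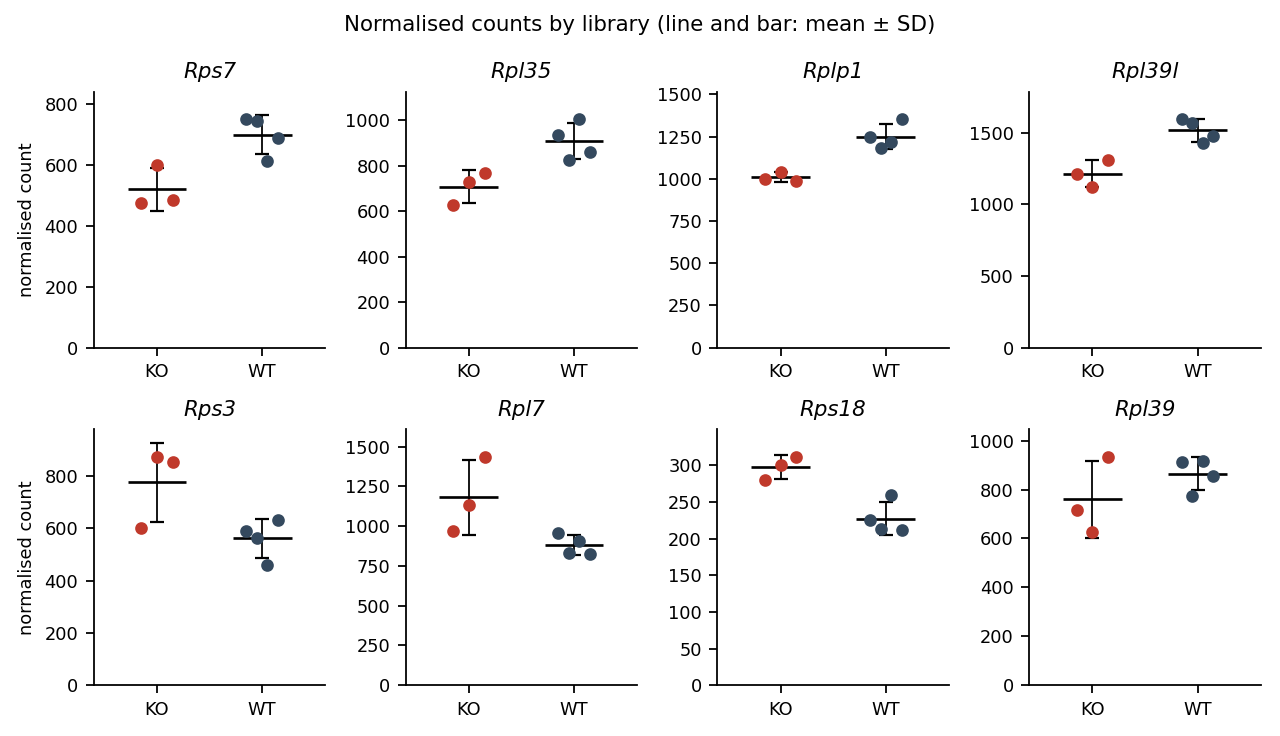
Normalised counts in each KO library (left, red) and WT library (right, blue) for the 7 genes with an unadjusted p under 0.05 and for Rpl39, with the mean ± SD as line and bar; each panel starts at 0 and has its own scale. The groups do not overlap in 6 of the 8 panels and overlap for Rps3 and Rpl39.

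Over the family, every KO library lay above every WT library for 5 genes (6.41%, against 9.37% of all genes tested) and below every WT library for 8 genes (10.3%, against 9.83%). The 5 were Rpl7, Rps18, Rpsa, Rpl37a and Rpl12. The 8 were Rps7, Rpl35, Rpl39l, Rplp1, Rpl36a, Rplp2, Rpl21 and Rps16. The share below WT was near that of all genes, and the share above WT was under it.

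The stalk of the large subunit and the Rpsa protein are points of contact with translation factors and with the mRNA. Rplp0, the base of the stalk and the row with the most counts in the family, had 2685, 3572 and 2804 normalised counts in KO libraries, against 4027, 3734, 3163 and 2995 in WT libraries (log2 fold change -0.21, SE 0.14, adjusted p = 0.406). KO 2 lay among the WT libraries, and KO 1 and KO 3 lay below all of them. Rplp2, the partner of Rplp1, had 442, 468 and 523 normalised counts in KO libraries, against 612, 553, 537 and 565 in WT libraries (log2 fold change -0.25, SE 0.14, adjusted p = 0.314). Its KO libraries were all below its WT libraries. The log2 fold changes of the stalk genes were thus -0.21 for Rplp0, -0.31 for Rplp1 and -0.25 for Rplp2, none of them called. Rpsa, the small subunit protein also described as a laminin receptor, had 286, 337 and 340.2 normalised counts in KO libraries, against 259, 281, 247 and 242 in WT libraries (log2 fold change 0.32, SE 0.16, adjusted p = 0.239), with all KO libraries above all WT libraries.

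The family spanned a wide range of levels, with a mean over the 7 libraries from 7.17 to 3283 normalised counts and a median of 348. Apart from Rplp0, the rows with the most counts, uncorrected for length, included Rpl4, Rpl32 and Rps14. Rpl4, a large subunit protein that reaches into the exit tunnel, had 1895, 2574 and 2316 normalised counts in KO libraries, against 2429, 2009, 1838 and 2171 in WT libraries (log2 fold change 0.10, adjusted p = 0.740). Rpl32 had 1838, 2225 and 2586 normalised counts in KO libraries, against 2217, 2149, 2056 and 2047 in WT libraries (log2 fold change 0.05, adjusted p = 0.859). KO 1 was the lowest and KO 3 the highest of the 7 libraries. Rps14, known in people for its loss in a form of anaemia, had 1299, 1536 and 1792 normalised counts in KO libraries, against 1697, 1617, 1683 and 1637 in WT libraries (log2 fold change -0.12, adjusted p = 0.657). In each of these 3 the groups overlapped, and KO 1 was the lowest or next to lowest of the 7 libraries. Per kb of coding sequence the order was another, led by Rpl41 (14524 in KO and 14161 in WT), Rpl39l (7796 in KO and 9729 in WT) and Rps29 (6486 in KO and 7109 in WT), genes with short coding sequences.

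The lowest rows were Rps27, Rps12, Rpl9, Rpl12 and Rpl10. Rps27 had 6.36, 4.55 and 8.75 normalised counts in KO libraries, against 4.77, 7.46, 7.48 and 10.8 in WT libraries, and Rps12 had 5.45, 5.45 and 7.66 normalised counts in KO libraries, against 13.3, 9.59, 5.61 and 11.9 in WT libraries. Rpl9 averaged 15.2 ± 6.84 in KO and 17.3 ± 5.94 in WT, Rpl12 averaged 29.2 ± 1.49 in KO and 21.6 ± 6.06 in WT and Rpl10 averaged 25.2 ± 2.93 in KO and 29.4 ± 2.00 in WT (mean ± SD, n = 3 and 4). At such levels the fold change on the log2(value + 1) scale understates a change, and the groups overlapped in each but Rpl12.

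The KO libraries lay further apart in ribosomal protein mRNA than the WT libraries, a difference in spread that was not tested. The genes took 0.569, 0.611 and 0.659% of reads in KO libraries, against 0.641, 0.625, 0.640 and 0.595% in WT libraries (0.613 ± 0.0454% in KO and 0.625 ± 0.0215% in WT, mean ± SD, n = 3 and 4). The 95% Wilson interval of each share, which covers counting error only, reached at most 0.00606 percentage points to either side. Their summed normalised counts were 38829, 46339 and 49418 in KO libraries, against 47297, 44412, 43281 and 44355 in WT libraries. The group means were 44862 ± 5447 in KO and 44836 ± 1721 in WT. The median deviation of the 78 genes from their own 7-library mean was -0.19, 0.04 and 0.18 on the log2(value + 1) scale in KO libraries, against 0.05, -0.02, -0.06 and -0.01 in WT libraries. Of the 78 genes, 9, 44 and 61 lay above their 7-library mean in KO libraries, against 52, 33, 30 and 38 in WT libraries. KO 1 was thus the low end and KO 3 the high end of the 7 libraries. Over all genes with a mean of at least 100, the median deviation was -0.01, 0.02 and 0.01 in KO libraries, against 0.02, 0.01, -0.03 and 0.02 in WT libraries. Without KO 2 and KO 3, the libraries with the most granulosa marker RNA, the median log2 fold change of the family was -0.20 and 0 of the 78 were called, with KO then represented by 1 library whose spread was taken to be that of the WT libraries. When the mean granulosa marker level entered as a covariate, the median was -0.24, with 0 of the family called. In both of these fits the log2 fold changes of Rpl3, Rpl4, Rpl32 and Rps23, positive with all libraries, were negative. The granulosa marker level was higher in every KO library (lowest 3.40) than in any WT library (highest 3.38). The fit with this covariate therefore cannot tell KO apart from granulosa marker level. Among the KO libraries, KO 1 was lowest both in granulosa marker level and in ribosomal protein level. KO 2 was highest in granulosa marker level and KO 3 in ribosomal protein level. How these levels are related was not tested.

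**Figure D3:**
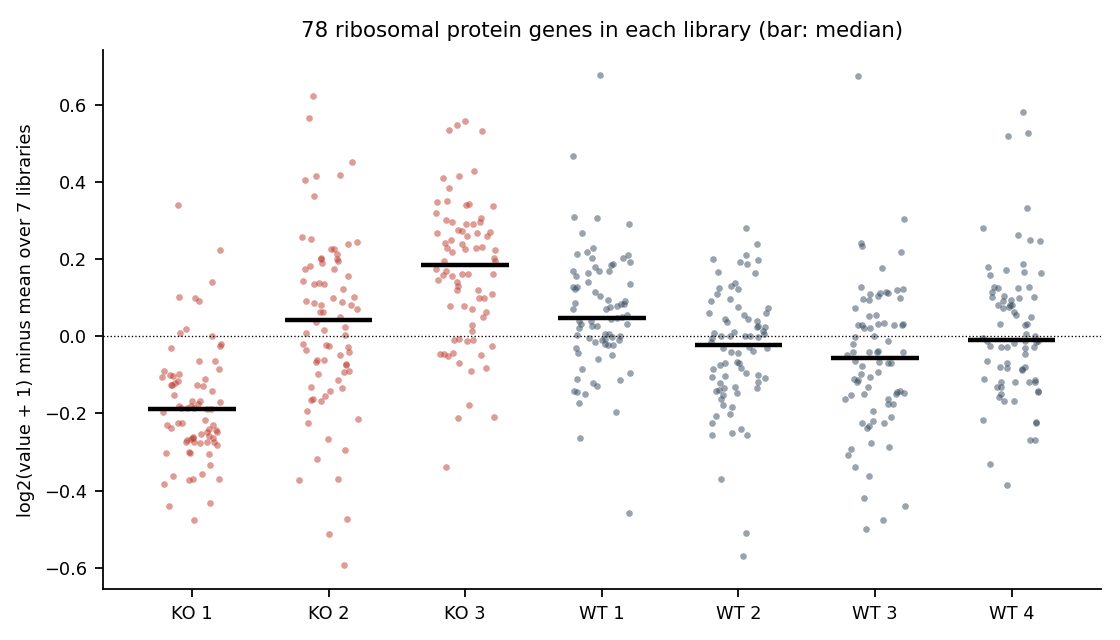
Deviation of each of the 78 genes from its mean over the 7 libraries, on the log2(value + 1) scale, for the KO libraries (left, red) and the WT libraries (right, blue); black bars are medians. The medians run from -0.19 in KO 1 to 0.18 in KO 3 and stay between -0.06 and 0.05 in the WT libraries.

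The widest differences between KO libraries were in Rpl9, Rpl3, Rpl13, Rps27 and Rps23. Rpl3, which shapes the peptidyl transferase centre, had 60, 126 and 97.4 normalised counts in KO libraries, against 86.8, 73.5, 67.3 and 76.9 in WT libraries (log2 fold change 0.25, adjusted p = 0.599), and its highest KO library held 2.11 times the lowest. Rpl13 had 179, 323 and 234 normalised counts in KO libraries, against 238, 242, 216 and 287 in WT libraries (log2 fold change -0.04, adjusted p = 0.939). Rps23, a protein of the decoding centre, had 249.8, 437 and 338 normalised counts in KO libraries, against 286, 252, 252 and 289 in WT libraries (log2 fold change 0.30, adjusted p = 0.338). In these 3 genes KO 2 was the highest of the 7 libraries and KO 1 the lowest.

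The differences of KO 2 from the other KO libraries went with the length of the coding sequence, known for 77 of the 78 genes, and the difference between KO 3 and KO 1 hardly did. The 11 genes with under 300 coding bases were all higher in KO 3 than in KO 2, by a median of 0.44 on the log2(value + 1) scale (0.11 to 0.81). Of the 21 genes with at least 600 coding bases 10 were higher in KO 3, with a median of -0.02. Between KO 2 and KO 1 the order was the other way, with a median difference of 0.04 in the 11 short genes and of 0.41 in the 21 long genes. Between KO 3 and KO 1 the median difference was 0.41 in the short and 0.34 in the long genes, with a Spearman's rho of -0.08 with coding length over the 77 genes. Across the 77 genes Spearman's rho of coding length with the KO 3 minus KO 2 difference was -0.52, and Pearson's r with log2 length was -0.46. This is a description across genes of shared libraries, and genes are not independent replicates. A like rho was present between WT libraries (-0.52 for WT 3 minus WT 1), so length went with differences among libraries of 1 group. Against each gene's 7-library mean, rho was -0.07, 0.55 and -0.12 in KO libraries, against 0.09, 0.03, -0.54 and -0.09 in WT libraries. KO 2 and WT 3 stood apart in opposite directions. For the log2 fold change of KO over WT rho was 0.24, with a median log2 fold change of -0.11 in the 11 short genes and of 0.07 in the 21 long ones. No measure of RNA quality comes with the labels, and its part in these differences was not tested.

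**Figure D4:**
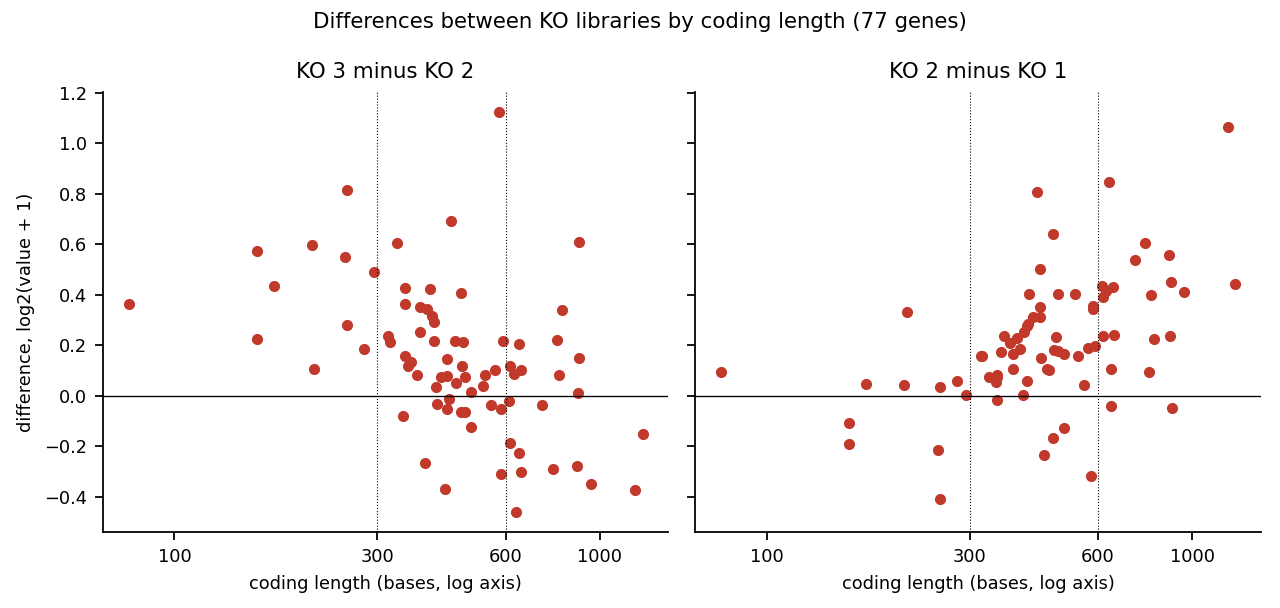
Difference between KO libraries on the log2(value + 1) scale against coding length in bases (log axis) for 77 genes, KO 3 minus KO 2 (left) and KO 2 minus KO 1 (right); dotted lines mark 300 and 600 bases. Left of the first dotted line, all 11 genes lie above 0 in the left panel, while in the right panel longer genes lie higher.

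How far a row's level can be read depends on how much of its sequence occurs elsewhere. For each of the 77 genes, all 75-base stretches of the coding sequence were looked up in the transcripts of every other gene of GENCODE M21. In 22 genes every stretch was also present in another gene, and in 34 genes over 90% were. Of 700 pairs of a member and a sharing gene, 661 were with a pseudogene. Rps3 and Rpl39l were among the genes that shared none. Per kb of coding sequence the mean normalised count had a median of 1350 in the 10 genes with at most 20% of stretches shared, of 908 in the 45 genes between 20 and 100%, and of 399 in the 22 genes with all stretches shared. Spearman's rho between the shared percentage and the level per kb was -0.55 over the 77 genes, given as a description. The 22 fully shared genes still ran from 21.1 (Rps12) to 14317 (Rpl41). Rpl41 has 78 coding bases and only 4 such stretches, so its level per kb rests on a very short length. Untranslated parts of the mRNAs enter neither the length nor the stretches, and reads from them may be in the counts. The sources used here do not say how reads with several matches were handled. The pseudogene rows Rpl35a-ps2, Rpl35a-ps3, Rpl35a-ps4 and Rpl35a-ps6, on different chromosomes, held the same count as each other in every library. So did Rps19-ps1 and Rps19-ps2. Reads matching these rows thus appear to have been counted in each of them. Whether this held for other rows was not tested. The rows of 17 of these 77 genes also overlap another counted gene, among them Rpl32 (Cand2), Rpl12 (Lrsam1), Rpl3 (Syngr1), Rpl13 (Gm20388) and Rps2 (Snhg9), so that reads from the overlap are uncertain without strand. The level of a row with much sharing is therefore uncertain, and its comparison between groups covers the reads that were counted. The median log2 fold change was 0.07, 0.00 and -0.06 in these 3 classes, and 2, 5 and 0 of their genes had an unadjusted p under 0.05.

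**Figure D5:**
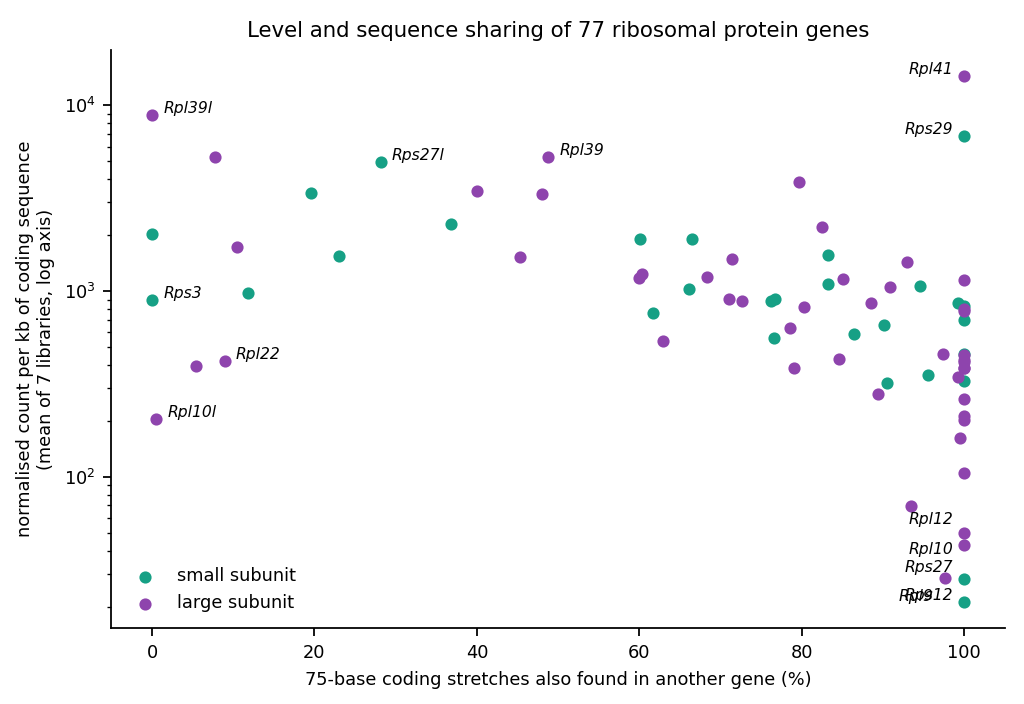
Mean normalised count per kb of coding sequence over the 7 libraries (log axis) against the percentage of 75-base coding stretches that also occur in another gene, for 77 genes. The fully shared genes at the right edge run from 21.1 for Rps12 to 14317 for Rpl41, and no gene below 20% lies under 204 (Rpl10l).

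The table also held 180 rows of ribosomal protein pseudogenes, which took 0.326, 0.356 and 0.410% of reads in KO libraries, against 0.351, 0.343, 0.375 and 0.339% in WT libraries. These rows have a pseudogene name in -ps, or follow the naming rule with a pseudogene type. Some of those named in -ps are typed as protein coding. Rows with the same count in every library, such as Rpl35a-ps2 and Rpl35a-ps3, bring the same reads into the share more than once. They also stand as separate rows among those tested. Of the 122 pseudogene rows that were tested 2 were called higher and 1 lower in KO, or 2.46% against 6.71% of all genes, with a median log2 fold change of -0.11. The rows called higher, named after their values were seen, were Rps23-ps1 (608 ± 157 in KO and 394 ± 23.4 in WT; log2 fold change 0.59, SE 0.17, adjusted p = 0.0389) and Rpl9-ps6, which the table types as protein coding (310.3 ± 84.8 in KO and 182 ± 36.9 in WT; log2 fold change 0.75, SE 0.21, adjusted p = 0.0332). The row called lower was Rpl17-ps9 (0.729 ± 1.26 in KO and 7.5 ± 2.97 in WT; log2 fold change -2.46, SE 0.60, adjusted p = 0.0175), a row of low counts. In both rows called higher, KO 1 lay within the WT range. Their parent genes Rps23 and Rpl9 were not called, but 100% and 97.6% of the coding stretches of these genes occur elsewhere. Whether reads of Rps23 and Rpl9 lie in the rows called higher was not tested. Among the rows of highest level, Rpl19-ps11 averaged 1882 ± 328 in KO and 2100.1 ± 81.6 in WT and Rps4l averaged 2082 ± 795 in KO and 1686 ± 274 in WT, neither called (adjusted p = 0.480 and 0.575 for KO over WT).

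Several families had more counts in pseudogene rows than in the gene itself, which was so for 20 of the 56 genes with such rows by their WT means. These sums can hold a read more than once where it was counted in several rows. The row of Rpl10, whose protein joins late to make the large subunit competent, averaged 25.2 ± 2.93 in KO and 29.4 ± 2.00 in WT, while its 5 pseudogene rows summed to 2101 ± 331 normalised counts in KO and 1621 ± 95 in WT. Nearly all of that sum was Rpl10-ps3, which is typed as protein coding (2092 ± 333 in KO and 1598 ± 99.5 in WT). Its KO libraries were all above its WT libraries, and it was not called (log2 fold change 0.38, limma adjusted p = 0.0902). Rps12 averaged 6.19 ± 1.27 in KO and 10.1 ± 3.38 in WT, while its 7 pseudogene rows summed to 340.3 ± 63.4 normalised counts in KO and 322 ± 41.7 in WT. Most of that sum was Rps12-ps3, also typed as protein coding (338 ± 65.2 in KO and 316 ± 37.3 in WT). Rpl9 averaged 15.2 ± 6.84 in KO and 17.3 ± 5.94 in WT, while its 5 pseudogene rows summed to 356 ± 101 normalised counts in KO and 211 ± 41.6 in WT. Most of that sum was Rpl9-ps6, typed as protein coding (310.3 ± 84.8 in KO and 182 ± 36.9 in WT). Rpl3 averaged 94.6 ± 33.3 in KO and 76.1 ± 8.13 in WT, while its 2 pseudogene rows summed to 738 ± 204 normalised counts in KO and 496 ± 72.2 in WT. The low rows of Rps27 and Rpl12 had little in named pseudogene rows, at 0.365 ± 0.632 normalised counts in KO and 0.266 ± 0.533 in WT for Rps27 and 2.06 ± 2.00 normalised counts in KO and 0.935 ± 1.87 in WT for Rpl12. Copies under other names were not summed. All coding stretches of Rps27 occur in other genes, among them Rps27rt, whose row averaged 489.5 ± 93.3 in KO and 410.3 ± 53.4 in WT. Those of Rpl12 occur in pseudogenes such as Gm10275.

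The male germ line is known to use paralogs of several ribosomal proteins. In the oocyte libraries 6 pairs were compared by the paralog's share of the pair's normalised counts in each library, with a two-sided exact permutation test over the 35 ways to label 3 of the 7 libraries KO, whose smallest possible p is 0.0571, adjusted over the 6 pairs. Rpl39l made up 62.8, 64.1 and 58.4% in KO libraries, against 63.6, 67.0, 60.9 and 63.3% in WT libraries (61.8 ± 3.00% in KO and 63.7 ± 2.50% in WT, mean ± SD; exact permutation p = 0.457, adjusted p = 0.549). The groups overlapped. The 95% Wilson interval of each library's share, which covers counting error only, reached 1.84 to 2.14 percentage points to either side. Per kb of coding sequence the Rpl39l row stood at 7796 in KO and 9729 in WT, above the Rpl39 row at 4870.1 in KO and 5542 in WT. However, 48.8% of the coding stretches of Rpl39 occur in other genes. The pseudogene row Rpl39-ps averaged 927 ± 218 in KO and 959 ± 52.1 in WT, beside 760 ± 157 in KO and 864 ± 67.5 in WT for Rpl39. Whether reads of Rpl39 lie in that row was not tested, so the share and the order of the pair are uncertain. Rps27l took nearly all counts of its pair, at 99.5 ± 0.107% in KO and 99.4 ± 0.178% in WT (exact permutation p = 0.286, adjusted p = 0.429), but every coding stretch of Rps27 occurs elsewhere. Rps27rt, one of the genes sharing these stretches, held more counts than the Rps27 row and is not part of the pair. Rpl10l, an intronless copy of Rpl10 known from the testis, made up 84.8 ± 2.83% in KO and 80.4 ± 3.87% in WT (exact permutation p = 0.171, adjusted p = 0.343), again beside a fully shared parent row.

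Of its pair with Rpl7, Rpl7l1 made up 30.0, 28.7 and 23.3% in KO libraries, against 31.3, 35.5, 32 and 35.2% in WT libraries (27.3 ± 3.58% in KO and 33.5 ± 2.15% in WT; exact permutation p = 0.0571, adjusted p = 0.343). This share was lower in all KO libraries than in all WT libraries, and the unadjusted p was the smallest the design allows, so that no pair could reach a p under 0.05 here, with or without the adjustment. Rpl7l1 itself averaged 436 ± 20.2 in KO and 442 ± 13.6 in WT (log2 fold change -0.02, adjusted p = 0.957), beside the log2 fold change of 0.41 of Rpl7, which was not called either. Rpl22l1 made up 46.9 ± 6.07% in KO and 43.0 ± 4.08% in WT (exact permutation p = 0.571, adjusted p = 0.571). Rpl36al made up 95.6 ± 0.282% in KO and 95 ± 0.281% in WT (exact permutation p = 0.114, adjusted p = 0.343), and both rows of that pair are fully shared with other genes. Rpl36a had 93.6, 105 and 121 normalised counts in KO libraries, against 131, 132, 144 and 139 in WT libraries (log2 fold change -0.36, adjusted p = 0.276). Of other genes with close copies, Rps4x averaged 1530.5 ± 174 in KO and 1499.8 ± 137 in WT (log2 fold change 0.03, adjusted p = 0.933), Rps2 averaged 853 ± 164 in KO and 726 ± 86.6 in WT (log2 fold change 0.22, adjusted p = 0.423) and Rpl13a averaged 273 ± 44.0 in KO and 289 ± 10 in WT (log2 fold change -0.09, adjusted p = 0.799).

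The 11 tested ribosomal proteins and relatives outside the naming rule gave 0 calls, with a median log2 fold change of -0.01 and 1 gene at an unadjusted p under 0.05 (9.09%, against 21.8% of all genes, of which 6.71% were called). That gene was Rps3a1, with 487, 633 and 689 normalised counts in KO libraries, against 511, 455, 512 and 404 in WT libraries (log2 fold change 0.35, adjusted p = 0.189). Fau, whose small subunit protein is made as a fusion with a ubiquitin-like protein, averaged 216 ± 39.7 in KO and 272 ± 49.8 in WT (log2 fold change -0.33, adjusted p = 0.301). Rps27rt averaged 489.5 ± 93.3 in KO and 410.3 ± 53.4 in WT (log2 fold change 0.25, adjusted p = 0.398) and Rpl36al averaged 2315 ± 346 in KO and 2601 ± 58.0 in WT (log2 fold change -0.18, adjusted p = 0.436).

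Of 22 genes for elongation factors and other proteins of TOP mRNAs, 2 were called higher in KO and 0 lower, with a median log2 fold change of 0.18. Of all genes 3.09% were called higher and 3.63% lower, to be set beside this list and the next 3. Eef1a1, which brings aminoacyl-tRNA to the ribosome, had 4122, 6243 and 5534 normalised counts in KO libraries, against 3827, 3293, 2941 and 3123 in WT libraries (log2 fold change 0.67, SE 0.14, adjusted p = 0.00628). Its KO libraries were all above its WT libraries. Hnrnpa1, an RNA-binding protein with a TOP mRNA, had 715, 1081 and 793 normalised counts in KO libraries, against 571, 484, 436 and 647 in WT libraries (log2 fold change 0.68, SE 0.17, adjusted p = 0.0172). Eif4a2 averaged 759 ± 169 in KO and 541 ± 71.2 in WT (log2 fold change 0.47, adjusted p = 0.0797) and the chaperonin subunit Cct4 averaged 1682 ± 128 in KO and 1299 ± 106 in WT (log2 fold change 0.37, adjusted p = 0.0803), both uncalled.

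Among 59 ribosome biogenesis factors 1 was called higher and 2 lower, with a median log2 fold change of 0.08. Eif6, which keeps free large subunits from joining small ones, had 1921, 1959 and 1396 normalised counts in KO libraries, against 2685, 2542, 2268 and 3202 in WT libraries (log2 fold change -0.61, SE 0.14, adjusted p = 0.0147), all KO libraries below all WT libraries. Nob1, the nuclease that matures the small subunit RNA, had 409.7, 478 and 407 normalised counts in KO libraries, against 299, 318, 279 and 288 in WT libraries (log2 fold change 0.54, SE 0.15, adjusted p = 0.0335), all KO libraries above all WT libraries. Nat10, which acetylates ribosomal RNA, had 76.3, 65.5 and 54.7 normalised counts in KO libraries, against 111, 108, 103 and 103 in WT libraries (log2 fold change -0.70, SE 0.21, adjusted p = 0.0477). Rrs1, an assembly factor of the large subunit, averaged 25.9 ± 4.39 in KO and 10.7 ± 3.70 in WT (log2 fold change 1.24, adjusted p = 0.0513) and was not called.

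Of 29 genes of the RNA polymerase I and III machinery 1 was called, higher in KO, with a median log2 fold change of 0.16. It was Polr1e, a subunit of RNA polymerase I, with 358, 422 and 371 normalised counts in KO libraries, against 283, 277, 263 and 250.2 in WT libraries (log2 fold change 0.51, SE 0.15, adjusted p = 0.0455). Cd3eap, another subunit of that polymerase, averaged 106 ± 8.04 in KO and 71.4 ± 6.37 in WT (log2 fold change 0.57, adjusted p = 0.102). Taf1a averaged 3317 ± 494 in KO and 2587 ± 269 in WT (log2 fold change 0.35, adjusted p = 0.109) and Polr3c averaged 375 ± 91.3 in KO and 273 ± 19.9 in WT (log2 fold change 0.43, adjusted p = 0.138).

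Of 32 regulators of TOP mRNAs and ribosomal proteins 4 were called, all higher in KO, with a median log2 fold change of 0.18. Gabpa, the DNA-binding subunit of GABP, whose motif the promoters above often hold, had 95.4, 150.0 and 118 normalised counts in KO libraries, against 47.7, 55.4, 43.0 and 59.6 in WT libraries (log2 fold change 1.21, SE 0.23, adjusted p = 0.00326). Eif4ebp1, the mTOR target that blocks the cap-binding factor eIF4E, had 129.9, 190.0 and 139 normalised counts in KO libraries, against 80.1, 80.9, 74.8 and 82.3 in WT libraries (log2 fold change 0.92, SE 0.20, adjusted p = 0.00936). Mlst8, a subunit of both mTOR complexes, had 54.5, 66.4 and 54.7 normalised counts in KO libraries, against 29.6, 33.0, 32.7 and 32.5 in WT libraries (log2 fold change 0.85, SE 0.26, adjusted p = 0.0491). In each of these 3 the KO libraries were all above the WT libraries. Myc averaged 4.55 ± 2.41 in KO and 0.238 ± 0.477 in WT (log2 fold change 2.11, adjusted p = 0.0445), counts too low for its size to be read. Leaving out single libraries gave 1 to 3 calls among the elongation and TOP genes, 0 to 3 among biogenesis factors, 0 to 3 in the polymerase list and 1 to 3 among regulators. With the granulosa marker covariate these 4 lists held 0 calls, and over all genes 2 were called. The covariate did not overlap between KO and WT libraries, so that fit cannot tell KO apart from granulosa marker level.

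Of 20 tested granulosa cell markers 2 were called higher and 2 lower in KO, with a median log2 fold change of 1.37. This is 20% called, against 6.71% of all genes, and 14 of the 20 had an unadjusted p under 0.05 (70%, against 21.8% of all genes). Wnt4 averaged 11 ± 6.09 in KO and 1.42 ± 1.82 in WT and Nr0b1 averaged 7.34 ± 6.85 in KO and 0.266 ± 0.533 in WT, both higher, while Cyp19a1 averaged 78.2 ± 25.1 in KO and 179 ± 28.4 in WT and Esr2 averaged 722 ± 129 in KO and 1013 ± 106 in WT, both lower. Summed over the 23 marker rows the normalised counts ran from 4506 to 5841 in KO libraries, against 4157 to 5323 in WT libraries. Summed markers of theca and stroma were 12.7 to 23.6 in KO, against 15.0 to 29.8 in WT, and those of endothelium 171 to 227 in KO, against 190 to 225 in WT. Immune and blood markers summed to 183 to 275 in KO, against 530 to 572 in WT, nearly all of it from C1qb (log2 fold change -1.31, adjusted p = 0.000124), while C1qa, Cd74, Tyrobp and the other 4 of these 7 markers stayed under 5 counts in every library.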

How the data were processed

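RNA of 7 libraries (3 KO, 4 WT) was analysed from 1 deposited table of gene rows, whose samples were grouped by their titles. The submitters' processing notes list STAR, FastQC, cutadapt, DESeq2 and DESeq, without versions or roles, and the build GRCm38 (mm10). The sources used here name no counter and no handling of reads with several matches. The deposited signal values were gene counts divided by the authors by 1 size factor per library: within each library, values divided by the smallest step were whole numbers (within 0.05) for 100% of values up to 1000 reads and for at least 99.9% of all values. Size factors, totals and intervals therefore come from recovered reads.

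The main test was limma 3.58.1 (R 4.3.3) with trend and robust options on log2(value + 1), applied to 19227 genes (3 or more libraries at 1 or above), KO minus WT, with Benjamini-Hochberg adjusted p under 0.05 ("called"). It was also run on simulated counts, drawn for each gene on its own and without differences shared by the genes of a library beyond depth. No result of that run is used here. For low genes the added 1 shrinks the fold change. As alternatives, edgeR 4.0.16 and DESeq2 1.42.0 were run on the recovered reads, beside other pseudocounts, filters, scalings, the replicate number as a block, each library left out, KO 2 and KO 3 left out together, and a granulosa marker covariate. Coding sequences and transcripts came from GENCODE M21 (77 of the 78 genes matched, 72 with the same start) and promoters from RefSeq. Python 3.11.15 with pandas 2.3.3, scipy 1.17.1 and Biopython 1.88 was used. The members and the gene lists were chosen with earlier results of these data known. Genes were named by a rule: Mfn2, called members, the 5 of highest and of lowest mean, the stalk genes and Rpsa, paralog pairs, the 5 with the largest differences between KO libraries, up to 4 genes of smallest p in each other list, and the pseudogene rows of highest level. Exceptions are said to be chosen after their values were seen. Some ribosomal protein genes are not reported here.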

Additional observations from a re-analysis of the deposited data

Results flagged for a closer look

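In each of the 78 genes and in 2 summed measures, the 4 WT libraries were searched for 1 library far from the others by Dixon's test at its 95% critical value; groups of 3, such as the KO libraries, are too small for it. It picked out 3 of the 80, and chance picks out about 1 in 20. Rpl23 stood at 271 normalised counts in WT 3, against 241 to 245 in the other WT libraries. Rpl22, a protein of the large subunit, stood at 178 in WT 2, against 166 to 167 in the others. Rpl7a stood at 259 in WT 1, against 199 to 209 in the others. None of these 3 genes was called.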

How the results depend on the processing

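Uncalled values changed sign: 9 of the 27 member log2 fold changes compared, the family and both subunit medians, and the difference in the share of reads had the other sign under at least 1 alternative. The signs of Rpl3, Rpl4, Rpl32 and Rps23 turned negative both without KO 2 and KO 3 (5 members in all) and with the granulosa covariate (6 members); leaving out KO 1, KO 2 or KO 3 turned 2, 4 and 2 members, and leaving out WT 3 or WT 4 turned 1 each. The counts of family members called, 0 higher and 0 lower, were the same under every alternative except without KO 1 (2 higher, with 815 of all 18871 genes tested called higher). Leaving out single libraries gave 0 to 2 members called higher and 0 called lower, a family median log2 fold change between -0.090 and 0.099, a small subunit median between -0.062 and 0.16 and a large subunit median between -0.11 and 0.078. It gave between 594 and 1767 genes called over all genes, and a KO minus WT difference in the share of reads between -0.0354 and 0.00996 percentage points, against -0.0122 with all libraries. The calls in the other lists ranged from 1 to 3 (elongation and TOP genes), 0 to 3 (biogenesis factors), 0 to 3 (polymerase I and III) and 1 to 3 (regulators). Without KO 2 and KO 3 the medians were -0.20 (family), -0.12 (small subunit) and -0.27 (large subunit), with 98 genes called; with the granulosa covariate they were -0.24, -0.16 and -0.29, with 2 genes called; each of these 4 lists then held 0 calls. A pseudocount of 0.5 gave 2 calls among regulators, and no filter or scaling by library totals gave 0 in the polymerase list. The cause of these moves was not tested. The covariate did not overlap between KO and WT libraries, so the fit with it cannot tell KO apart from granulosa marker level. The family median was 0.074 over the members with at most 20% of stretches shared, an alternative chosen after seeing the data, and 0.011 without the fully shared members. Other scalings shifted the median of all genes by at most 0.023 against the deposited scaling.

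Same-numbered KO and WT libraries did not deviate together (correlations -0.12, 0.03 and 0.02), so the numbers were not taken to pair samples. With the replicate block, which leaves out WT 4, 0 members and 1010 genes were called, with 0 calls among biogenesis factors, 0 in the polymerase list and 2 among regulators. The 95% intervals of the low rows Rps27, Rps12, Rpl9 and Rpl12 reached beyond 2-fold, and a 2-fold difference could not be told from none there; the parts of depth and of shared sequence in this were not tested.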
